A study of Rattus norvegicus with 8 samples.

Results

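The genes described here encode receptors, STAT transcription factors and feedback inhibitors of interleukin-6 type and growth hormone type signalling, with the type 1 interleukin-1 receptor beside them. They were chosen by symbol, as every probe set whose only gene symbol in the array annotation was Il6r, Il6st, Osmr, Il1r1, Stat3, Stat5a, Stat5b, Socs2, Socs3 or Cish. Of these 10 genes, 9 had a probe set of their own, with 16 probe sets among the 31042 tested and 9 genes among 14217. Osmr was not analysed here. Livers were removed 8 h after injection from Sprague-Dawley rats, all male and weighing 180 to 200 g, and their RNA was hybridised to an Affymetrix rat expression array. Rats received dexamethasone, a synthetic glucocorticoid (1.5 mg/kg into muscle), together with AICAR, a nucleoside that activates the kinase AMPK (0.7 g/kg into the peritoneum), or dexamethasone with saline, or AICAR with saline, or saline at both sites as vehicle. Each of the 4 groups held 2 arrays, and the design asks if AMPK activation modifies the metabolic actions of glucocorticoids. Because it is not stated whether replicate arrays stand for different rats, p-values here cover the spread between arrays and that spread may be technical in origin.

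Interleukin-6 binds its receptor chain, the product of Il6r, and the complex then engages the shared signalling chain gp130, encoded by Il6st. Receptor-bound JAK kinases phosphorylate STAT3, which in hepatocytes switches on acute-phase genes, and growth hormone acts in the same way through its own receptor and STAT5. SOCS proteins and CIS are made in response to STAT activity and bind the receptors or the kinases to damp the signal, while the interleukin-1 receptor signals through the separate NF-kB route and acts together with interleukin-6 in the acute-phase response.

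Values are log2 signals after robust multi-array averaging (RMA), and changes are differences of group means on that scale with standard errors from limma. A change was called at an adjusted p under 0.05. Arrays of the same group correlated at r = 0.997 to 0.998 over probe sets, against 0.979 to 0.993 between groups, and array medians lay between 5.22 and 5.26. Macrophage genes separated the groups. The mean over 11 markers of Kupffer cells and macrophages was 4.76 to 4.80 after dexamethasone plus AICAR, 7.60 to 7.75 after dexamethasone, 8.83 to 8.84 after AICAR and 8.65 to 8.66 after vehicle. Of these markers 10 fell and Lyz2 rose after the combination against vehicle, and the RMA scale has no value of 0 for an absent transcript. The mean of 8 hepatocyte markers stayed between 13.28 and 13.37 on all arrays. Fewer cells of a type and less RNA per cell cannot be told apart in whole liver. The 3′ minus 5′ signal of the actin control, a sign of RNA quality, averaged 1.80 after the combination, 2.04 after dexamethasone, 1.82 after AICAR and 2.23 after vehicle. The part of macrophage content and of RNA quality in the changes below was not tested.

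STAT proteins bind the palindrome TTCNNNGAA, and its presence upstream of the members was searched in RefSeq promoter sequences (GRCr8) over the 250 bases before each annotated gene start. A sequence was found for 8 of the 9 measured genes, and none was used for Socs2. The motif was present in 1 of the 8, Cish, and occurred there 4 times. Of 33469 rat promoters of the same length 7.67% held at least 1 match and 2 held 4 or more. The promoters of Cish (chr8:116850719-116850968, plus strand), of Il6r (chr2:177645210-177645459, minus strand) and of Stat3 (chr10:86363360-86363609, minus strand) are shown, the first for its motifs and the others because their transcripts moved in opposite directions when AICAR was added to dexamethasone. Capitals mark the matches, each of which reads as the same motif on both strands.
Cish: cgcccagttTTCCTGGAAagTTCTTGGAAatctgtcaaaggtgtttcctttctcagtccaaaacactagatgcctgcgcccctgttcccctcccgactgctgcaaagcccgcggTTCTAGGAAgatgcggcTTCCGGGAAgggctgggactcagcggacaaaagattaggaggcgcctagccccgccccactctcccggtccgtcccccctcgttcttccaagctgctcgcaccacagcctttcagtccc
Il6r: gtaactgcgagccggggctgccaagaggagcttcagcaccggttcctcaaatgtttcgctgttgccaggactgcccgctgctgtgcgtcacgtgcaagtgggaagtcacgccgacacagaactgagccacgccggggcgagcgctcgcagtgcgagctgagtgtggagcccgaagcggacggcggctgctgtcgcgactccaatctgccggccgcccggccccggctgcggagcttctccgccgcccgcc
Stat3: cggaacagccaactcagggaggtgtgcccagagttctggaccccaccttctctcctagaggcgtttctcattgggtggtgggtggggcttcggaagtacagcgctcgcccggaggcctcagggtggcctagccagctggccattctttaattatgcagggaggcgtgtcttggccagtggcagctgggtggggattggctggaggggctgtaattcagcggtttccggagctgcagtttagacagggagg
The Cish matches were TTCCTGGAA, TTCTTGGAA, TTCTAGGAA and TTCCGGGAA, and they began at positions -241, -230, -136 and -119 relative to the gene start. AGAACA, the core letters of the glucocorticoid response element, was searched on both strands (TGTTCT on the other) and was present in no promoter of the 8 genes, against 17.5% of all promoters. These windows are short, and a match or its lack describes the letters of this window alone.

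Receptor chains and STAT genes moved in several directions. Against vehicle, the combination left 2 of the 9 genes higher (Il1r1 and Stat3) and 4 lower (Il6st, Stat5a, Stat5b and Socs2), where 15.9% of all 14217 genes were called higher and 18.4% lower. Dexamethasone alone raised 4 (Il6r, Il6st, Il1r1 and Stat3) and lowered Socs2, against 8.37% and 14.3% of all genes. AICAR alone raised Il6st and lowered Socs2, against 6.22% and 8.96%. The median change of the 9 genes was -0.09 after the combination, 0.28 after dexamethasone and 0.15 after AICAR, and that of all genes was -0.01, -0.03 and 0.00. These comparisons share the vehicle arrays.

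Adding AICAR to dexamethasone raised Stat3 and lowered 4 genes (Il6r, Il6st, Stat5a and Socs2) relative to dexamethasone alone, where 14% of all genes were called higher and 11.3% lower. Relative to AICAR alone, the combination raised 2 genes (Il1r1 and Stat3) and lowered 4 (Il6st, Stat5a, Stat5b and Socs2), against 18.7% and 19.4% of all genes. The interaction, meaning the change dexamethasone made in AICAR-treated rats minus its change in rats without AICAR, was positive for Stat3 and negative for Il6r, Il6st and Stat5a, against 11.9% and 8.05% of all genes. Median changes of the 9 genes were -0.21 against dexamethasone, -0.18 against AICAR and -0.07 for the interaction, and those of all genes were 0.02, -0.02 and 0.01. Socs3 and Cish passed the threshold in none of the 6 comparisons.

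**Figure D1:**
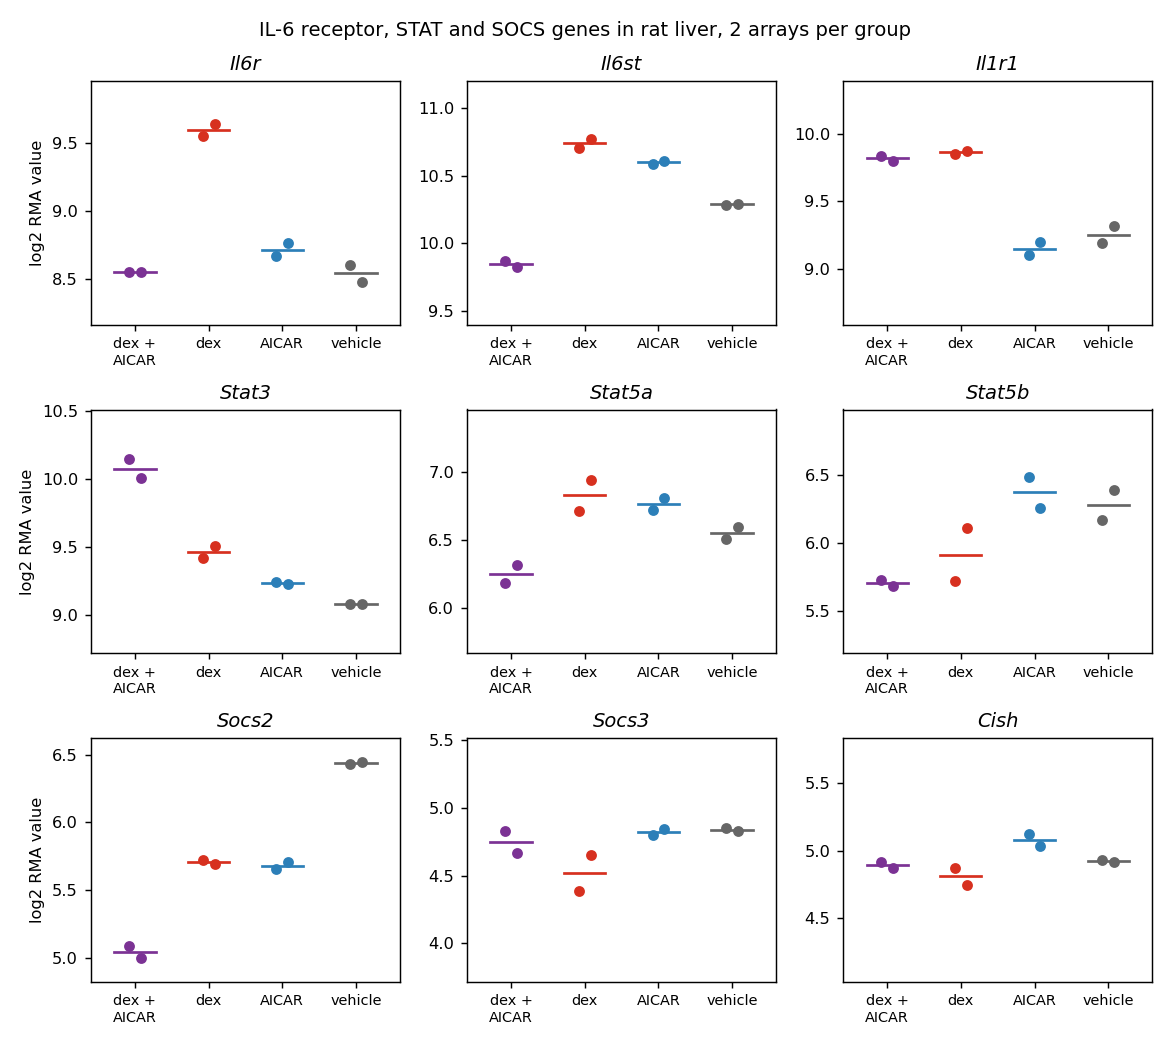
RMA signal (log2) of the 9 measured genes on each array (points) with the group mean (line), for dexamethasone plus AICAR, dexamethasone, AICAR and vehicle, 2 arrays each. Every panel spans the same number of log2 units but has its own centre. Il6r stands high after dexamethasone alone at 9.56 and 9.65, and Socs2 is lowest after the combination at 5.09 and 5.00.

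Il6r, the ligand-binding receptor chain, was raised by dexamethasone in rats without AICAR. It read 8.55 and 8.55 after dexamethasone plus AICAR, 9.56 and 9.65 after dexamethasone, 8.67 and 8.76 after AICAR, and 8.60 and 8.47 after vehicle. Both arrays of dexamethasone alone lay above all 6 others, and the combination fell within the range of the vehicle arrays. The rise over vehicle was 1.06 ± 0.08 (2.09-fold, limma adjusted p = 4.37e-05). With AICAR present, the dexamethasone effect was -0.16 ± 0.08 (adjusted p = 0.162), and the interaction was -1.23 ± 0.11 (adjusted p = 0.000258). The combination was 2.07-fold lower than dexamethasone alone (adjusted p = 4.9e-05) and differed from vehicle by 0.01, with a 95% confidence interval of -0.17 to 0.19. AICAR alone changed the gene by 0.18 ± 0.08, which was not called (adjusted p = 0.194). The order of the means was dexamethasone, AICAR, dexamethasone plus AICAR and vehicle, and no pair among the last 3 was called different. With a trended and robust prior AICAR was called higher than vehicle (adjusted p = 0.0491) and the combination lower than AICAR (adjusted p = 0.0434), and cyclic loess scaling also called the second (-0.26, adjusted p = 0.0288).

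Il6st, the signalling chain gp130, was higher after either agent alone and lower after both. Its brightest probe set read 9.87 and 9.82 after the combination, 10.70 and 10.77 after dexamethasone, 10.59 and 10.61 after AICAR, and 10.28 and 10.29 after vehicle. The 4 groups did not overlap, and they ran from dexamethasone through AICAR and vehicle down to the combination. The change against vehicle was -0.44 ± 0.07 after the combination (1.36-fold lower, adjusted p = 0.00176) and 0.45 ± 0.07 after dexamethasone (1.37-fold higher, adjusted p = 0.00255). The gene fell by 0.89 in the combination relative to dexamethasone (adjusted p = 6.19e-05), and the interaction was -1.20 ± 0.10 (adjusted p = 0.00014). The rise after AICAR, 0.31 ± 0.07 (adjusted p = 0.0242), was less secure. It lost its call without any 1 of the 4 AICAR and vehicle arrays (adjusted p between 0.0891 and 0.106), and the mean of the 4 Il6st probe sets gave 0.06 (adjusted p = 0.621).

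All 4 Il6st probe sets carried a called negative interaction, at -1.20, -0.35, -0.56 and -0.66, and all 4 were lower in the combination than after dexamethasone. Relative to AICAR the combination lowered 3 of them, by 0.75 in the brightest, and the second brightest changed by -0.13 ± 0.07 (adjusted p = 0.198). The mean of the 4 sets gave -0.39 there (adjusted p = 0.00236). Against vehicle, the combination lowered 3 of them, and the dimmest changed by -0.12 ± 0.07 (adjusted p = 0.283). Dexamethasone raised the brightest set and the dimmest (0.40 ± 0.07), while the other two changed by 0.22 and 0.15 without a call. AICAR gave 0.31 in the brightest and -0.20, -0.01 and 0.13 in the others, of which none was called. The mean over all 4 sets gave a smaller interaction of -0.69 (adjusted p = 0.0018), so its size depends on the probe set.

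**Figure D2:**
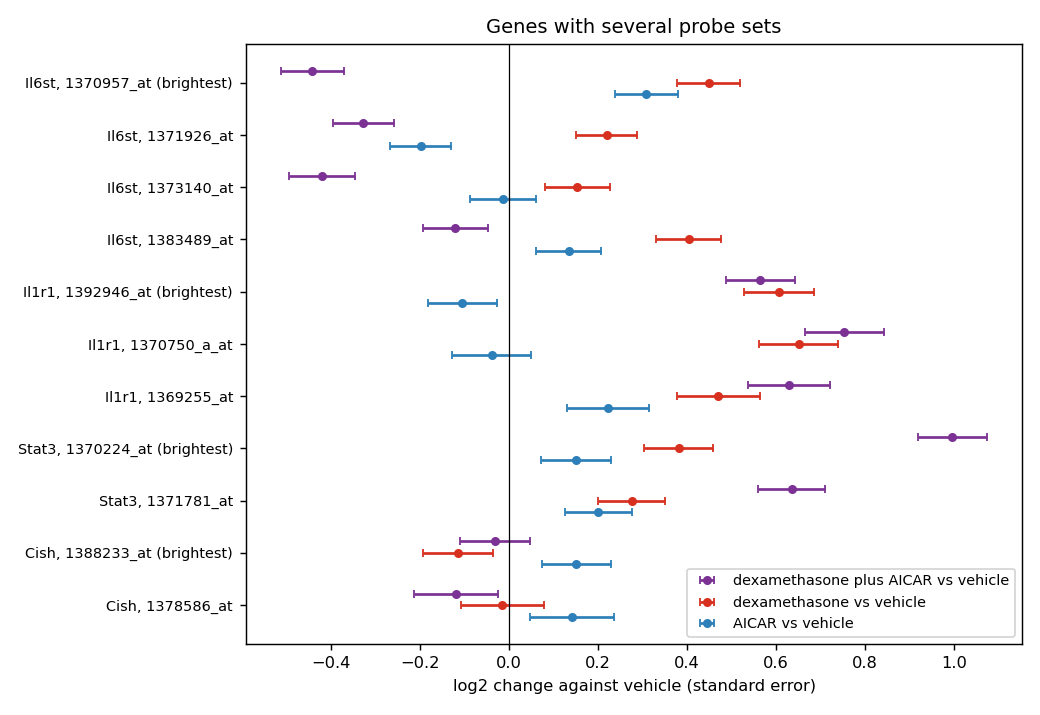
Change against vehicle (log2, with standard error) of every probe set of the genes that have several, for dexamethasone plus AICAR (top point), dexamethasone (middle) and AICAR (bottom), 2 arrays per group. The combination is left of dexamethasone in all 4 Il6st sets, and both treatments that include dexamethasone are right of 0 in all 3 Il1r1 sets.

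Il1r1, the signalling receptor for interleukin-1, rose with dexamethasone whether or not AICAR was given. It read 9.84 and 9.80 after the combination, 9.85 and 9.87 after dexamethasone, 9.10 and 9.20 after AICAR, and 9.19 and 9.32 after vehicle. The 4 arrays with dexamethasone lay above the 4 without it, and AICAR and vehicle overlapped. Dexamethasone raised it by 0.67 ± 0.08 in AICAR-treated rats (adjusted p = 0.000263) and by 0.61 ± 0.08 in rats without AICAR (adjusted p = 0.000874). The interaction was 0.06 ± 0.11 (adjusted p = 0.761, 95% confidence interval -0.19 to 0.31). The 2 dimmer probe sets were also called higher after the combination, by 0.75 and 0.63, and after dexamethasone, by 0.65 and 0.47, although their signals lay near the array medians.

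After the combination, Il1a, Il1b and Il1rap fell against vehicle, while Il1rn, Il1r2 and Il1r1 rose. Il1b, a ligand made chiefly by macrophages, averaged 4.94 after the combination, 5.41 after dexamethasone, 7.07 after AICAR and 6.82 after vehicle, a fall of 1.88 ± 0.25 after the combination (adjusted p = 0.000589) and of 1.41 ± 0.25 after dexamethasone (adjusted p = 0.00453). Il1a, the other ligand, averaged 6.75 after the combination, 7.56 after dexamethasone, 7.46 after AICAR and 7.85 after vehicle. It fell by 1.10 ± 0.07 after the combination (adjusted p = 8.5e-06). Its changes were -0.30 ± 0.07 after dexamethasone (adjusted p = 0.0183) and -0.39 ± 0.07 after AICAR (adjusted p = 0.00857). In the mean of its probe sets the change after AICAR was -0.23 and was not called (adjusted p = 0.0666). Il1rn, the receptor antagonist, averaged 7.51 after the combination, 6.32 after dexamethasone, 6.19 after AICAR and 5.99 after vehicle. Its rise over vehicle was 1.52 ± 0.08 after the combination (adjusted p = 2.36e-06) and 0.33 ± 0.08 after dexamethasone (adjusted p = 0.0189), and its interaction was 1.00 ± 0.11 (adjusted p = 0.000594). The decoy receptor Il1r2 rose by 1.48 ± 0.11 after the combination (adjusted p = 2.1e-05). Its signals in vehicle were so low (3.06) that the size is uncertain. Unlike Il1r1, it was not called after dexamethasone (0.26 ± 0.11, adjusted p = 0.147) and rose after AICAR (0.56 ± 0.11, adjusted p = 0.0134). Its interaction was 0.67 ± 0.15 (adjusted p = 0.0202). Il1rap, the accessory chain that the receptor needs for signalling, fell by 1.07 ± 0.07 after the combination (adjusted p = 1.25e-05). The mean of the Il1rap probe sets gave a smaller fall, -0.41 (adjusted p = 0.00192). The mean of 11 macrophage markers, given above, was, like Il1b, lowest after the combination and next lowest after dexamethasone. Il1a was also lowest after the combination, but next lowest after AICAR. The part of macrophage content in the falls of Il1a and Il1b was not tested.

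**Figure D3:**
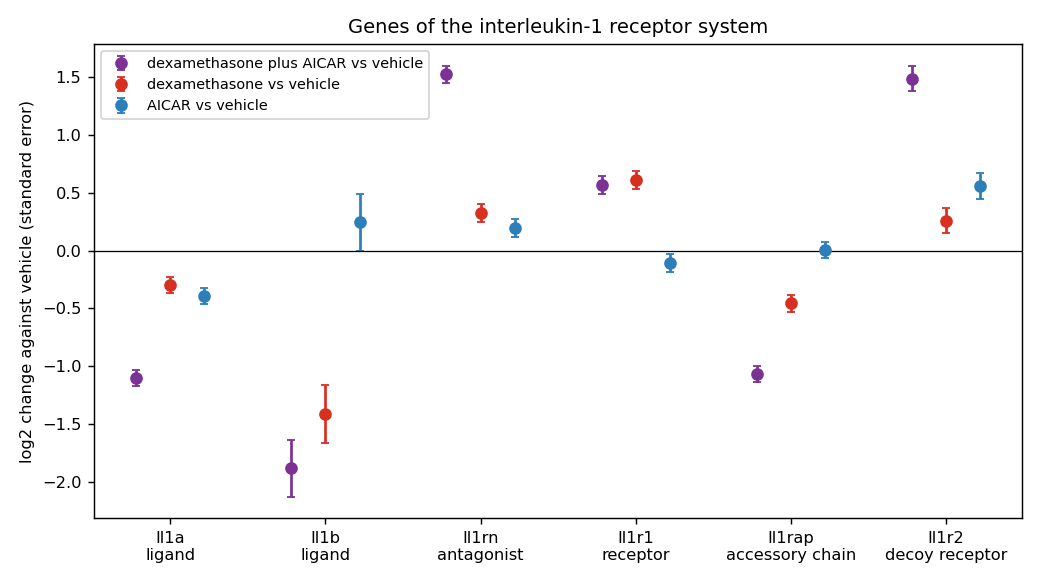
Change against vehicle (log2, with standard error) of 6 genes of the interleukin-1 system, for dexamethasone plus AICAR, dexamethasone and AICAR, 2 arrays per group. Il1rn and Il1r2 stand highest after the combination at 1.52 and 1.48, Il1a, Il1b and Il1rap lie lowest there, and Il1r1 is at 0.56 after the combination and 0.61 after dexamethasone.

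Stat3, the transcription factor downstream of gp130, rose after dexamethasone and rose further after both agents. Its brightest probe set read 10.15 and 10.01 after the combination, 9.42 and 9.50 after dexamethasone, 9.24 and 9.23 after AICAR, and 9.08 and 9.08 after vehicle. The groups stood in that order without overlap. Against vehicle it was 2.00-fold higher after the combination (1.00 ± 0.08, adjusted p = 3.15e-05) and 1.30-fold higher after dexamethasone (0.38 ± 0.08, adjusted p = 0.0097), and the call after dexamethasone was lost without dexamethasone replicate 2 (adjusted p = 0.0549). AICAR alone gave 0.15 ± 0.08, which was not called (adjusted p = 0.248). The combination exceeded dexamethasone by 0.62 ± 0.08 (adjusted p = 0.000779). The dimmer set rose by 0.64 ± 0.08 after the combination and by 0.28 ± 0.08 after dexamethasone.

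The interaction for Stat3 was 0.46 ± 0.11 (adjusted p = 0.0234) in the brightest set and 0.16 ± 0.11 (adjusted p = 0.372) in the other. It lost its call under cyclic loess scaling (0.34, adjusted p = 0.0603), in the mean of both sets (0.31, adjusted p = 0.0607) and without any 1 of 6 of the 8 arrays (both vehicle and both AICAR arrays, dexamethasone replicate 1 and combination replicate 1; adjusted p between 0.0606 and 0.093). In those 6 fits its size stayed between 0.39 and 0.47, against 0.46 with all arrays. A test against a minimum change of 0.3 did not call it either (adjusted p = 0.677).

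Stat5a and Stat5b, the growth hormone and prolactin responsive STATs, were lower after the combination than after AICAR. Stat5a read 6.18 and 6.31 after the combination, 6.71 and 6.94 after dexamethasone, 6.72 and 6.81 after AICAR, and 6.51 and 6.59 after vehicle. The combination lay below all other arrays, and dexamethasone and AICAR overlapped. It changed by -0.58 ± 0.10 relative to dexamethasone (1.49-fold lower, adjusted p = 0.00338) and by -0.51 ± 0.10 relative to AICAR (adjusted p = 0.00397). Dexamethasone alone gave 0.28 ± 0.10 (adjusted p = 0.0863), which was not called. It was called with the replicate number as a block (adjusted p = 0.0449), a trended and robust prior (0.0411), a filter on dim probe sets (0.0487), centring on the brighter sets (0.0397) and without dexamethasone replicate 1 (0.39, adjusted p = 0.0438), and it was 0.16 without dexamethasone replicate 2. The interaction was -0.79 ± 0.14 (adjusted p = 0.00608). Against vehicle the fall of 0.30 after the combination sat at the threshold (adjusted p = 0.0497). That call was lost when arrays were centred on the brighter probe sets (adjusted p = 0.0597) and without any 1 of the vehicle, AICAR or combination arrays (adjusted p between 0.066 and 0.249).

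For Stat5b the signals were 5.73 and 5.68 after the combination, 5.72 and 6.11 after dexamethasone, 6.49 and 6.26 after AICAR, and 6.17 and 6.39 after vehicle. Combination and dexamethasone arrays overlapped, as did AICAR and vehicle arrays, and all 4 arrays with dexamethasone lay below the 4 without. The change of the combination was -0.67 ± 0.14 against AICAR (adjusted p = 0.00646) and -0.58 ± 0.14 against vehicle (adjusted p = 0.0146), and the second call was lost without vehicle replicate 2 or either combination array (adjusted p between 0.0577 and 0.0976). Dexamethasone alone gave -0.37 ± 0.14, which was not called (adjusted p = 0.108). That value was -0.56 and called without dexamethasone replicate 2 (adjusted p = 0.034), -0.175 without dexamethasone replicate 1, and called with a trended and robust prior (adjusted p = 0.036). The interaction was -0.30 ± 0.20 (adjusted p = 0.363, 95% confidence interval -0.75 to 0.15) and the responses of Stat5a and Stat5b were not tested against each other.

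**Figure D4:**
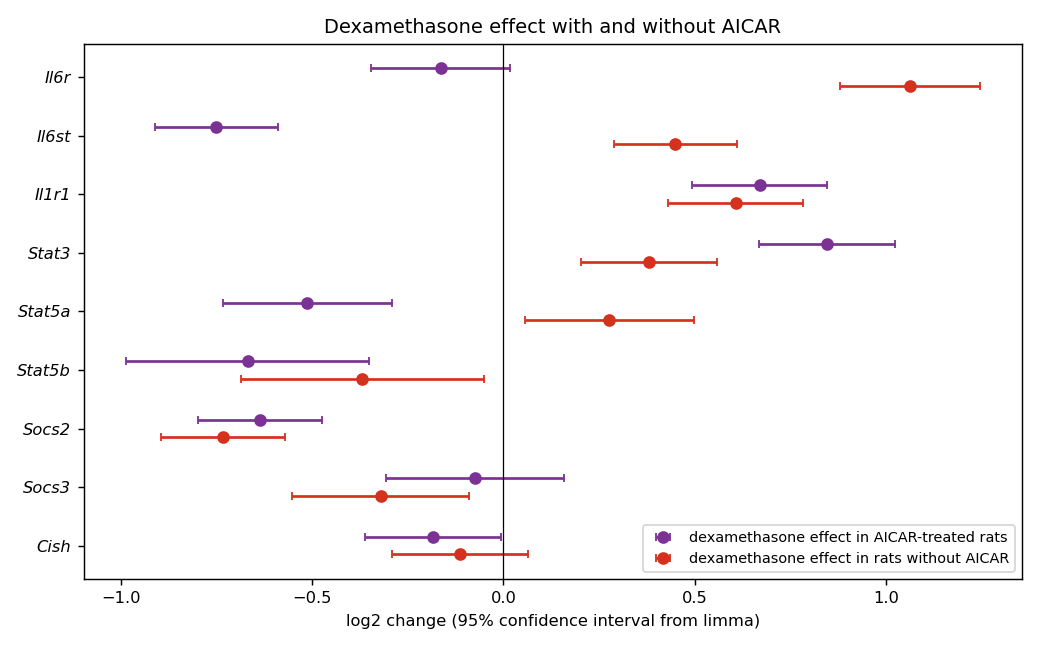
Dexamethasone effect (log2 change with 95% confidence interval) in rats given AICAR (dexamethasone plus AICAR minus AICAR, upper point) and in rats without it (dexamethasone minus vehicle, lower point), 2 arrays per group. For Il6r, Il6st and Stat5a the 2 intervals lie apart, with effects of -0.16, -0.75 and -0.51 with AICAR against 1.06, 0.45 and 0.28 without. They also lie apart for Stat3, at 0.85 with AICAR against 0.38 without, and for Il1r1 and Socs2 they overlap.

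Socs2, an inhibitor of growth hormone receptor signalling and a target of STAT5, fell after each agent and fell further after both. It read 5.09 and 5.00 after the combination, 5.72 and 5.69 after dexamethasone, 5.66 and 5.71 after AICAR, and 6.43 and 6.44 after vehicle. The vehicle arrays were highest and the combination lowest, with dexamethasone and AICAR overlapping between them. The fall against vehicle was 2.63-fold after the combination (-1.40 ± 0.07, adjusted p = 2.52e-06), 1.66-fold after dexamethasone (-0.73 ± 0.07, adjusted p = 0.000187) and 1.69-fold after AICAR (-0.76 ± 0.07, adjusted p = 0.000471). The interaction, the departure of the combination from the sum of the single changes, was 0.10 ± 0.10 (adjusted p = 0.584, 95% confidence interval -0.13 to 0.33). The signals after the combination lay below the array medians, and RMA understates changes of dim probe sets. The part of this in the interaction was not tested. The 5 comparisons between groups kept their call for Socs2 in all 16 alternatives.

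Socs3 and Cish, the inhibitors induced by STAT3 and by STAT5, gave low signals, below the medians of the arrays, and RMA carries no detection call. Socs3 read 4.83 and 4.66 after the combination, 4.38 and 4.65 after dexamethasone, 4.80 and 4.84 after AICAR, and 4.85 and 4.83 after vehicle. The dexamethasone arrays were the lowest and differed most from each other, and the change against vehicle was -0.32 ± 0.10 (adjusted p = 0.062). It was called when dim probe sets were left out (adjusted p = 0.0348) and without dexamethasone replicate 2 (-0.45, adjusted p = 0.0244), and it was -0.19 without dexamethasone replicate 1. Cish, the gene with 4 STAT motifs shown above, read 4.91 and 4.87 after the combination, 4.87 and 4.74 after dexamethasone, 5.12 and 5.03 after AICAR, and 4.93 and 4.92 after vehicle. Its group means spanned 0.27, the AICAR arrays were the highest, and its changes against vehicle were -0.03, -0.11 and 0.15 after the combination, dexamethasone and AICAR. Neither probe set of Cish was called in any comparison, although the mean of both was called lower in the combination than after AICAR (-0.22, adjusted p = 0.0388). At these signals a change of either gene may not be detectable.

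Other genes of the pathway were counted on lists chosen with earlier results of these data known. For every list, the shares of all genes called higher and lower were 15.9% and 18.4% after the combination. They were 8.37% and 14.3% after dexamethasone, and 6.22% and 8.96% after AICAR. Of 13 measured ligands, 4 rose and 2 fell after the combination, with a median change of 0.07 against -0.01 for all genes, and 2 rose and 3 fell after dexamethasone, while 1 fell after AICAR. Il6 itself averaged 2.95, 2.89, 2.98 and 2.88 after the combination, dexamethasone, AICAR and vehicle, signals near the bottom of the scale. Cntf, the ciliary neurotrophic factor, which signals through gp130, rose by 0.83 ± 0.09 after the combination and by 0.57 ± 0.09 after dexamethasone. Its means, 5.15 after the combination, 4.89 after dexamethasone and 4.33 after vehicle, lay below the array medians.

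Among 17 other cytokine receptor chains, 9 fell and 3 rose after the combination (median -0.33, all genes -0.01), 5 fell after dexamethasone (median -0.19), and 3 rose and 2 fell after AICAR (median -0.03). Ghr, the growth hormone receptor whose signal runs through STAT5, averaged 10.58 after the combination, 10.96 after dexamethasone, 11.31 after AICAR and 11.49 after vehicle. It fell by 0.91 ± 0.07 after the combination (adjusted p = 3.61e-05) and by 0.53 ± 0.07 after dexamethasone (adjusted p = 0.00127). Ifngr1, a chain of the interferon-gamma receptor, fell by 1.05 ± 0.08 after the combination (adjusted p = 1.9e-05).

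Of 7 measured JAK kinases and other STATs, 2 fell after the combination, 1 fell after dexamethasone and 1 rose after AICAR. Jak1, a kinase that gp130 binds, fell by 0.45 ± 0.07 after the combination (adjusted p = 0.00156), and Jak3 rose by 0.91 ± 0.10 after AICAR (adjusted p = 0.00107). Jak3 averaged 4.83 after vehicle, below the array medians. Medians were 0.06, 0.01 and -0.04 after the combination, dexamethasone and AICAR. Of 13 other inhibitors of the pathway (further SOCS genes, PIAS genes, phosphatases and Sh2b3), 1 rose and 2 fell after the combination, 2 fell after dexamethasone and 2 fell after AICAR, with medians of -0.12, -0.10 and -0.09. Socs1, which encodes another inhibitor of JAK kinases, was not called, at 0.00, -0.08 and -0.08.

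The 20 STAT3 target genes, mostly of acute-phase proteins, differed in which treatments changed them. After the combination 7 rose and 2 fell (median 0.16), after dexamethasone 5 rose and 1 fell (median -0.01), and after AICAR 8 rose and 2 fell (median 0.15). A2m, alpha-2-macroglobulin, a major acute-phase protein of the rat, averaged 13.76 after the combination, 13.71 after dexamethasone, 7.61 after AICAR and 9.49 after vehicle, and so stood high where dexamethasone was given. Lbp, the lipopolysaccharide-binding protein, averaged 8.61, 8.40, 11.46 and 8.57 in the same order, with a rise of 2.88 ± 0.07 after AICAR (adjusted p = 6.06e-07) and an interaction of -2.68 ± 0.10 (adjusted p = 2.63e-06). Timp1, a protease inhibitor gene, averaged 8.89, 7.18, 9.24 and 7.18, high in both groups that received AICAR. Orm1, which encodes the acute-phase protein orosomucoid, rose after every treatment, by 1.32, 1.24 and 1.07 after the combination, dexamethasone and AICAR. Lcn2, the gene of lipocalin-2, likewise rose by 4.49, 0.85 and 5.88 in that order. Hamp, in the mean of its probe sets, changed by -0.18, -0.26 and -2.17 in that order, and only the fall after AICAR was called. Its interaction there was 2.25.

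Of 9 measured STAT5 and growth hormone target genes, 7 fell and 1 rose after the combination (median -0.52, all genes -0.01), 3 rose and 3 fell after dexamethasone (median -0.05), and 2 rose and 2 fell after AICAR (median -0.05). Igfals, which encodes the subunit that stabilises circulating IGF-1, fell by 1.70 ± 0.10 after the combination (adjusted p = 5.36e-06) and by 1.40 ± 0.10 after dexamethasone (adjusted p = 2.87e-05). Egfr, the epidermal growth factor receptor, fell by 1.94 ± 0.07 after the combination (adjusted p = 3.09e-07) and had an interaction of -1.51 ± 0.10, while the mean of its probe sets gave -1.55 and an interaction of -0.91. Bcl6, a repressor gene that STAT5 keeps low in mouse liver, averaged 9.79 after the combination, 10.50 after dexamethasone, 10.46 after AICAR and 9.77 after vehicle. Its interaction was -1.40 ± 0.10 (adjusted p = 6.36e-05). Since the list holds such a repressed gene, its counts and medians do not measure STAT5 activity in a single direction.

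Of 10 interleukin-1 and NF-kB targets, 3 rose and 2 fell after the combination (median 0.14), 1 rose and 2 fell after dexamethasone (median 0.11), and 4 rose and 1 fell after AICAR (median 0.05). Ccl2, a monocyte chemokine, rose by 2.07 ± 0.07 after the combination (adjusted p = 2.64e-07), against 0.42 ± 0.07 after AICAR. Nfkbiz, a nuclear regulator of NF-kB targets, rose by 1.39 ± 0.09 after the combination (adjusted p = 1.09e-05), or by 0.81 in the mean of its probe sets. Cxcl1 fell after every treatment. The mean of its probe sets gave -0.43 after the combination, -1.83 after dexamethasone and -1.08 after AICAR, with an interaction of 2.48. Among 7 response checks of the 2 agents, 3 rose and 1 fell after the combination, 5 rose and 1 fell after dexamethasone, and 1 rose and 3 fell after AICAR. Nr3c1, the glucocorticoid receptor gene, averaged 9.06 after the combination, 10.02 after dexamethasone, 9.87 after AICAR and 10.33 after vehicle, and its fall of 1.26 ± 0.09 after the combination was called (adjusted p = 1.67e-05). The mean of its probe sets gave -0.87 after the combination, -0.07 after dexamethasone and -0.20 after AICAR. Only the first of these was called. In such means Fkbp5, Tsc22d3 and Per1 rose by 2.06, 1.44 and 0.76 after the combination, and by 1.56, 2.05 and 0.94 after dexamethasone. Tat and Prkaa2 rose by 0.82 and 0.76 after dexamethasone and gave 0.11 and 0.06, not called, after the combination. Interactions were 0.78 for Fkbp5, -0.87 for Tsc22d3, -0.61 for Per1, -0.36 for Tat and -0.71 for Prkaa2. Of the 7 checks, 2 had a called positive interaction and 5 a negative one, against 11.9% and 8.05% of all genes.

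Other cell markers also differed between groups. The shares of all genes called, given with the pathway lists, apply to these counts as well. After the combination against vehicle, 2 of 9 other leukocyte markers rose and 4 fell, 4 of 6 sinusoidal endothelial markers fell, 5 of 9 stellate cell and fibroblast markers rose and 3 fell, and 2 of 8 hepatocyte markers rose and 2 fell. After dexamethasone, 5 of the leukocyte markers fell, as did 5 of the endothelial markers, 2 stellate markers rose and 3 fell, and 1 hepatocyte marker rose and 1 fell. After AICAR, 2 leukocyte markers rose and 1 fell, 1 endothelial marker fell, 5 stellate markers rose and 1 hepatocyte marker fell. Macrophage markers, in which 10 of 11 fell after the combination, fell in 9 of 11 after dexamethasone with 1 risen, and after AICAR 4 rose and 1 fell. The part of these cells in the member genes was not tested.

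For the 2 members whose group means spanned at least 1, the genes with the most similar pattern over the 8 arrays were sought among 1095 genes that spanned as much. Il6r was followed most closely by Nupr1 (r = 0.987), Dexi (r = 0.984) and Lpin1 (r = 0.982). Lpin1, which encodes the phosphatidate phosphatase lipin 1, averaged 7.59 after the combination, 10.39 after dexamethasone, 8.36 after AICAR and 7.96 after vehicle. Socs2 was followed by Ugp2 (r = 0.999), Cnot6l (r = 0.997) and Aldh1b1 (r = 0.992). Ugp2, the enzyme that makes UDP-glucose, averaged 10.96, 11.63, 11.61 and 12.35 after the combination, dexamethasone, AICAR and vehicle. These correlations describe 8 arrays in 4 groups that share their treatments, and they were picked as the highest of many.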

How the data were processed

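The deposited table holds log2 values that the authors made with RMA (affy), per the submitters' processing notes. Their versions are not given in the sources used here. The log base is not stated and was read as log2 from the range, 1.96 to 14.7. RMA sets all arrays to a common distribution, so changes are relative to the whole array, and it understates changes of dim probe sets. Of 31099 probe sets, 57 array controls were left out. Names came from the platform annotation: 20826 probe sets had 1 symbol, 436 several and 9780 none. A gene was represented by its probe set with the highest mean.

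A group-means model was fitted to the 8 arrays in limma 3.58.1 (R 4.3.3) and moderated by eBayes, with 4.58 prior and 4 residual degrees of freedom. P-values were adjusted by Benjamini-Hochberg across the 31042 probe sets. No exact permutation test was run, since 2 arrays against 2 allow no two-sided p under 0.333. The code was tested on simulated data. Dexamethasone was not compared with AICAR.

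The members, the 8 pathway lists, the 5 marker lists and the naming rule (all members, and of each list the called genes with the largest changes, at most 4 per comparison, and for members spanning at least 1 the 3 genes of most similar pattern) were chosen with earlier results of these data known. The rule set which genes of the lists could be named, and the text names only some of them. Genes named outside that rule (Il6, Socs1, Lyz2 and the means of the marker lists) are given as values. Alternatives were a trended and robust prior, a filter on dim probe sets below the 40th percentile, a fit of the compared groups alone, the replicate number as a block, cyclic loess, centring on brighter probe sets, the mean of a gene's probe sets, a minimum change of 0.3, and each array left out in turn. Deviations of same-numbered arrays correlated at -0.04 to 0.16, so the numbers were not taken as pairs.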

Additional observations from a re-analysis of the deposited data

Results flagged for a closer look

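The dexamethasone effect differed between rats with and without AICAR for 4 of the 9 genes, by limma's interaction term. For Il6r the interaction was -1.23 (adjusted p = 0.000258), from a dexamethasone effect of -0.16 with AICAR and 1.06 without. For Il6st it was -1.20 (adjusted p = 0.00014), with effects of -0.75 and 0.45, and in the mean of its 4 probe sets it was -0.69, with effects of -0.39 and 0.31. Stat5a had an interaction of -0.79 (adjusted p = 0.00608), with effects of -0.51 and 0.28, of which the second was not called (adjusted p = 0.0863) but was called in 5 of 16 alternatives, the replicate block among them (adjusted p = 0.0449). Stat3 had an interaction of 0.46 (adjusted p = 0.0234), with effects of 0.85 and 0.38, and it was 0.16 and not called in the dimmer probe set. Its size stayed between 0.39 and 0.47 in the 6 fits without 1 array that lost the call. All genes gave 11.9% positive and 8.05% negative interactions. Macrophage markers and the 3′ to 5′ difference of the actin control also differed between these groups, and their part was not tested.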

How the results depend on the processing

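Over the alternatives, 855 values of the 9 genes were recomputed. Of these, 806 kept their direction and side of the threshold, 36 lost their call, 13 gained one and none reversed among called values. Il6r kept its call after dexamethasone, against dexamethasone and in the interaction in all alternatives run, and Il1r1 and Socs2 kept all of theirs. With the replicate block, the member calls were unchanged except that Stat5a after dexamethasone was called (0.28, adjusted p = 0.0449). In AICAR against vehicle, 1 of the 9 genes was called when only those groups were fitted, with the mean of probe sets, and at a minimum change of 0.3, and the count of probe sets was 6048 with the trended and robust prior and 2345 with only those groups, against 4011. A minimum change of 0.3 left 3 genes after dexamethasone, 3 after the combination and 2 in the interaction, and the calls it ended were of Il6st, Stat3, Stat5a and Stat5b. It left 1523 probe sets after dexamethasone, 463 after AICAR, 2817 after the combination, 1588 against dexamethasone, 3149 against AICAR and 1364 in the interaction. Leaving out each array in turn gave 5 to 6 genes after dexamethasone, 1 to 2 after AICAR, 4 to 6 after the combination, 5 against dexamethasone, 6 against AICAR and 3 to 4 in the interaction. Probe sets called ranged from 3738 to 5303, 1447 to 3819, 5677 to 8386, 3698 to 5985, 6510 to 9596 and 2910 to 3991 in the same order, from 5726, 4011, 8350, 6233, 9563 and 4858 with all arrays; fewer arrays are the construction of these alternatives. Centring moved the share of higher calls after dexamethasone to 57.6% from 47.0%, after AICAR to 56.1% from 42.2%, and in the interaction to 44.0% from 55.1%. Of 4833 values of 51 other genes, 7 reversed, all in the mean of a gene's probe sets: Prkaa1 after AICAR (0.0813) and in the combination against AICAR (-0.0351), Prlr in the combination against vehicle (0.24) and dexamethasone (0.29) and in the interaction (0.0083), Ifnar2 in the combination against AICAR (-0.29) and Bcl3 in the interaction (-0.0171). The cause was not tested. The number of arrays limits the precision, and signals below the array medians limit what can be said of Socs3, of Cish and of Socs2 after the combination.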
